A study of Arabidopsis thaliana with 6 samples.

Results

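AT1G53540, AT2G29500 and ATHSP22.0 encode small heat shock proteins, and their transcripts were followed here in cotyledons of 3 Arabidopsis thaliana genotypes. They are 3 of 13286 genes to which the gene table used here gives a probe set of their own, and each has 1 such probe set. They had been picked with earlier results of the same arrays known, as genes high in the double mutant, so their levels and differences are a description and carry no test. The double mutant sicy-192 gun1-101 carries the sicy-192 mutation together with the gun1-101 allele, the single mutant carries sicy-192 alone, and the wild type is the ecotype Col-0, the background the labels give for every sample. As background, sicy stands for sugar-inducible cotyledon yellow, and its phenotype comes from a plastid invertase with gained function. GUN1 is a plastid protein of retrograde signalling, by which the state of the plastid alters nuclear gene expression. All seedlings were 4 days old and had been raised on 100 mM sucrose under cycles of 16 h light at 25 °C and 8 h dark at 22 °C. The light intensity was 100 µmol per square metre per second for all. By the labels, therefore, no group had a heat treatment. Each genotype has 2 arrays, 1 RNA sample per array. The labels call these biological replicates without saying whether they came from separate sowings. The p-values therefore reflect only how far these arrays differ, which may be technical. There is no gun1-101 single mutant among the samples, and what the allele does in a plant without sicy-192 is not analysed here.

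Small heat shock proteins are chaperones that bind unfolding proteins and keep them from aggregating until HSP70 and HSP100 chaperones can refold them. Plants hold several classes, each with its own compartment, and most of their genes are nearly silent in unstressed leaves and are switched on by heat shock factors after heat and some other stresses, as well as during seed maturation. AT1G53540 (HSP17.6C) and AT2G29500 (HSP17.6B) are class I proteins of the cytosol, and ATHSP22.0 (AT4G10250) is the small heat shock protein of the endoplasmic reticulum (ER).

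Signals are linear array intensities after each array was set to a trimmed mean of 500. Log2 changes are differences of log2(signal + 16), given with the standard error (SE) of a limma fit over all 6 arrays, and a probe set outside the 3 genes is called changed at a Benjamini-Hochberg adjusted p under 0.05 over the 14785 probe sets tested. The added 16 makes the changes of dim probe sets smaller than they would otherwise be. Of the cotyledon and leaf markers, 2 of 6 had a probe set of their own, and their summed signal was 34045 to 47323 in the double mutant, 22267 to 29679.5 in sicy-192 and 50156 to 68940.1 in the wild type. Of the 13 seed maturation genes 1 was measured, M10, at 1.51 to 3.53 in all arrays. Of the 7 root and hypocotyl markers 2 were measured. They were the root hair gene EXPA7, at 3.17 to 28.0, and PYK10, which cotyledons also make, at 16879 to 21943. The part of other tissues in the results was not tested, and in whole cotyledons fewer cells of a type and less RNA per cell cannot be told apart. A control for ribosomal RNA (25S) read 7778 and 8361 in the double mutant, 1378 and 1173 in sicy-192, and 452 and 1763 in the wild type, and its part in the results was not tested.

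All 3 genes had their highest signals in the double mutant, and sicy-192 overlapped the wild type. AT1G53540 had 1346 and 320.4 in the double mutant, 43.9 and 12.9 in sicy-192, and 40.2 and 36.2 in the wild type (replicates 1 and 2 in each case). Both double mutant arrays stood above the other 4, whereas the wild-type values lay between the 2 sicy-192 values. The means were 833 ± 725 in the double mutant, 28.4 ± 21.9 in sicy-192 and 38.2 ± 2.83 in the wild type (SD, n = 2 each), so the SD in the double mutant was nearly as large as its mean. The log2 change was 4.02 ± 0.57 over sicy-192, rank 4 of the 14785 probe sets counted from the largest positive change, and 3.64 ± 0.57 over the wild type, rank 25. These ranks, and those of the other genes below, follow from picking the genes as high in the double mutant.

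AT2G29500, the other class I gene, had 2823 and 1303 in the double mutant, 379.9 and 155 in sicy-192, and 251 and 214 in the wild type. The double mutant arrays were again apart from the rest, and the wild-type values again fell between those of sicy-192. Unlike the other 2 genes it had signals above 100 in every array, so its change depended less on the added 16. Its log2 change was 2.89 ± 0.41 over sicy-192 and 2.96 ± 0.41 over the wild type, ranks 32 and 53. The means were 2063 ± 1075 in the double mutant, 268 ± 159 in sicy-192 and 233 ± 26.2 in the wild type.

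ATHSP22.0, whose product resides in the ER, had the smallest log2 changes of the 3 with 16 added to the signals. Against sicy-192 its order relative to AT2G29500 depended on that constant, since with an offset of 1 ATHSP22.0 changed by 3.26 and AT2G29500 by 2.97. The signal of ATHSP22.0 was 432 and 103 in the double mutant, 48.5 and 9.01 in sicy-192, and 47.4 and 22.1 in the wild type. The lower double mutant array was still above all 4 arrays of the other genotypes. Its log2 change was 2.53 ± 0.62 against sicy-192 and 2.23 ± 0.62 against the wild type, ranks 50 and 123. The means were 268 ± 233 in the double mutant, 28.7 ± 27.9 in sicy-192 and 34.7 ± 17.9 in the wild type.

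**Figure D1:**
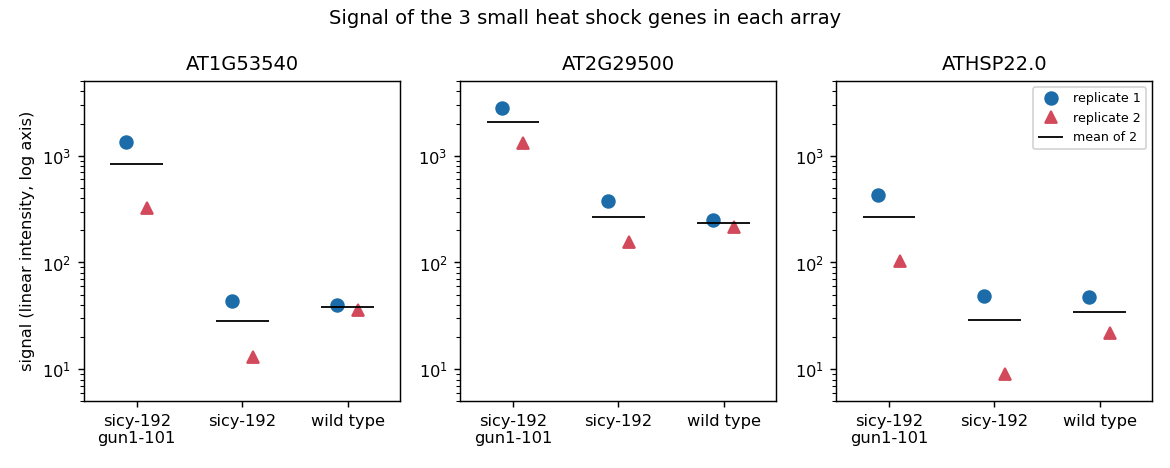
Signal of AT1G53540, AT2G29500 and ATHSP22.0 in each of the 6 arrays (vertical axis: linear intensity on a log scale; horizontal axis: genotype; circles replicate 1, triangles replicate 2, bars the mean of 2). Both double mutant arrays lie above all others for each gene, from 103 to 432 for ATHSP22.0 up to 1303 to 2823 for AT2G29500, and the circle is above the triangle in every genotype.

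The double mutant arrays lay wholly above the sicy-192 arrays for 3 of the 3 genes, as for 27.6% of all probe sets tested, and wholly above the wild-type arrays for 3 of 3, as for 37.9% of all. The genes had been chosen on these arrays, so nothing is read from those counts or from the ranks. Both comparisons share the double mutant arrays. AT1G53540 and ATHSP22.0 were among the probe sets tested only through their double mutant signals, since over the other 4 arrays their mean log2 values of 5.57 and 5.47 were below the 35th percentile used as a filter. AT2G29500, at 7.99, was above it in those arrays too.

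Between sicy-192 and the wild type the 3 genes differed by less than the SE of the fit. The log2 change was -0.38 ± 0.57 for AT1G53540, 0.07 ± 0.41 for AT2G29500 and -0.29 ± 0.62 for ATHSP22.0, with the median of all tested probe sets at 0.16. The direction was not stable. For AT2G29500 it was -0.11 with quantile normalization and -0.12 with arrays centred on their medians, and without sicy-192 replicate 2 the 3 changes were 0.15, 0.67 and 0.39.

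The array labelled replicate 1 gave the higher signal in 9 of 9 pairs, that is for each gene in each genotype. In the double mutant the gap between the replicates, on the log2 scale, was 2.02 for AT1G53540, 1.11 for AT2G29500 and 1.91 for ATHSP22.0. In sicy-192 these gaps were 1.05, 1.21 and 1.37, and in the wild type 0.11, 0.22 and 0.74. Across all tested probe sets the median absolute gap was 0.18 in the double mutant, 0.20 in sicy-192 and 0.21 in the wild type, and replicate 1 was the higher array for 52.6%, 53.2% and 53.8% of them. The 3 genes therefore varied between replicates far more than most probe sets in the mutants, with 99.2% to 99.9% of probe sets having a smaller value of replicate 1 minus replicate 2 there. The spiked control bioB split the arrays in the same way, with a 3' signal of 313, 379 and 391 in the double mutant, sicy-192 and the wild type where the number was 1, and of 51.6, 68.8 and 61.6 where it was 2. Its part in the gap was not tested.

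The differences within each replicate number are given for their sizes only. Both double mutant arrays lay above the other 4 for each gene, so the direction within a replicate number was fixed beforehand. Within the replicate 1 arrays the double mutant exceeded sicy-192 by 4.51, 2.84 and 2.80 on the log2 scale for AT1G53540, AT2G29500 and ATHSP22.0, and within the replicate 2 arrays by 3.54, 2.94 and 2.25. Against the wild type the differences were 4.60, 3.41 and 2.82 in the replicate 1 arrays and 2.69, 2.52 and 1.65 in the replicate 2 arrays. Single arrays moved the sizes. Without double mutant replicate 1 the changes against sicy-192 were 3.01, 2.34 and 1.57, and those against the wild type 2.63, 2.41 and 1.28. Without sicy-192 replicate 2 the changes against sicy-192 were 3.50, 2.29 and 1.84.

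**Figure D2:**
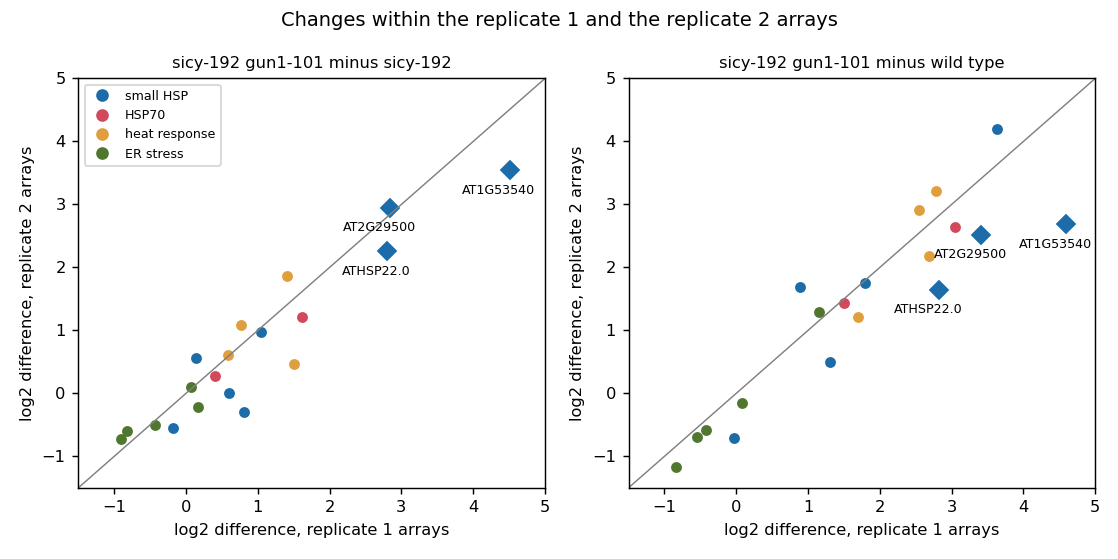
Log2 difference in the replicate 1 arrays (horizontal axis) against that in the replicate 2 arrays (vertical axis), for the double mutant minus sicy-192 (left) and minus the wild type (right). Diamonds are AT1G53540, AT2G29500 and ATHSP22.0, circles the other tested genes of the heat shock and ER stress lists, and the line marks equal differences. The lowest diamond value on either axis is 1.65, for ATHSP22.0 against the wild type, and AT1G53540 and ATHSP22.0 lie below the line in both.

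Other small heat shock genes did not all share this course. Of the 17 small heat shock genes listed, 9 have a probe set of their own, and beside the 3 above 5 were tested and 1 was below the filter. HSP15.7-PX, the small heat shock protein of the peroxisome, had 1211 and 745 in the double mutant, 577 and 373 in sicy-192, and 339 and 210.0 in the wild type, with no overlap between genotypes. It was called higher in the double mutant than in sicy-192 (log2 change 1.01 ± 0.30, limma adjusted p = 0.0403) and than in the wild type (1.77, adjusted p = 0.00284). The first of these calls was lost without double mutant replicate 1, without sicy-192 replicate 2, without the filter and without the variance trend, with an adjusted p of up to 0.234.

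HSP23.5-MITO (AT5G51440), a mitochondrial small heat shock protein, had 2248 and 2301 in the double mutant, 2551 and 3363 in sicy-192, and 167 and 110.4 in the wild type. Here both mutants were high and near each other, with a log2 change of -0.36 ± 0.20 for the double mutant against sicy-192 (limma adjusted p = 0.243) and 4.27 ± 0.20 for sicy-192 against the wild type (adjusted p = 1.39e-05). HSP17.4-CIII, the class III protein, had 1875 and 673 in the double mutant, 1066 and 829.9 in sicy-192, and 747 and 473 in the wild type, and was called in no comparison by limma. The lower double mutant array lay below both sicy-192 arrays.

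HSP18.5 had 2213 and 1794 in the double mutant, 2012 and 1214 in sicy-192, and 1189 and 548 in the wild type, and was called higher in the double mutant than in the wild type (1.28 ± 0.34, adjusted p = 0.0201). That call was lost without either double mutant array, without wild-type replicate 2 and without the filter (adjusted p up to 0.105). HSP15.4 had 4169 and 2872 in the double mutant, 2755 and 2876 in sicy-192, and 4244 and 4695 in the wild type, and was called lower in sicy-192 than in the wild type (-0.66 ± 0.18, adjusted p = 0.0288). This call was lost without any 1 of the 4 arrays compared, with quantile normalization, without the filter and without the variance trend (adjusted p up to 0.106). HSP26.5-MITO, the mitochondrial gene below the filter, had 60.9 and 10.6 in the double mutant, 30.2 and 0.925 in sicy-192, and 21.9 and 15.9 in the wild type.

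The wider heat shock list joins these genes with cytosolic HSP70 chaperones and other heat response genes. Many of its genes have no probe set of their own in the gene table, among them all those listed for HSP90, HSP100 and the heat shock factors, which are not analysed here. With the 3 described genes left out, 3 of 11 tested genes were called higher in the double mutant than in sicy-192 and 0 lower, where 9.54% of all probe sets were called higher and 11.2% lower. At an unadjusted limma p under 0.05, 0 of the 11 were lower. Their median log2 change was 0.60, against -0.05 for all tested probe sets. Against the wild type, 9 of 11 were called higher in the double mutant and 0 lower (17.3% and 12.8% of all; 0 lower at an unadjusted limma p under 0.05), with a median of 1.77 against 0.07. In sicy-192 against the wild type 6 of 11 were called higher and 1 lower (13.8% and 9.21% of all), with a median of 1.13 against 0.16. The 3 comparisons share arrays pairwise. Over the same genes replicate 1 was the higher array for 9 of 11 in the double mutant, 6 of 11 in sicy-192 and 9 of 11 in the wild type.

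Both tested HSP70 genes were called higher in each mutant than in the wild type, where 17.3% of all probe sets were called higher in the double mutant and 13.8% in sicy-192. HSC70-2 (AT5G02490), an HSP70 chaperone of the cytosol, had 2559.9 and 2967 in the double mutant, 826 and 1266 in sicy-192, and 296 and 461 in the wild type. The 3 genotypes did not overlap, and the steps were 1.42 ± 0.24 for the double mutant against sicy-192 (limma adjusted p = 0.00402) and 1.43 ± 0.24 for sicy-192 against the wild type (adjusted p = 0.00325). The first call was kept under every alternative run, with an adjusted p of up to 0.0347. In this gene replicate 2 was the higher array in each genotype, the reverse of the 3 small heat shock genes. HSC70-3 had 9289 and 8761 in the double mutant, 7036 and 7263 in sicy-192, and 3276 and 3225 in the wild type. It was called higher in sicy-192 than in the wild type (1.13 ± 0.13, adjusted p = 0.000389) and was not called between the double mutant and sicy-192 (0.34 ± 0.13, adjusted p = 0.104).

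All 4 tested genes of the heat response list were called higher in the double mutant than in the wild type, as were 17.3% of all probe sets. HOP3, a co-chaperone that links HSP70 and HSP90, had 818 and 641 in the double mutant, 298 and 165 in sicy-192, and 106 and 55.0 in the wild type. It was called higher in the double mutant than in sicy-192 (1.63 ± 0.32, limma adjusted p = 0.00703; adjusted p = 0.0509 without double mutant replicate 1) and in sicy-192 than in the wild type (1.36, adjusted p = 0.0144, lost without wild-type replicate 2 or sicy-192 replicate 1). ROF2, a peptidyl-prolyl isomerase induced by heat, had 2701 and 1924 in the double mutant, 1584 and 900.3 in sicy-192, and 448 and 243 in the wild type. Its rise in sicy-192 against the wild type was called (1.80 ± 0.32, adjusted p = 0.00402), and the difference of 0.92 ± 0.32 between the double mutant and sicy-192 was not (adjusted p = 0.0715). Both double mutant arrays lay above both sicy-192 arrays. That difference passed with arrays centred on their medians (limma adjusted p = 0.0446) and with only the 4 arrays compared (0.0299), among others. It did not pass without the filter or the variance trend, with offsets of 1 or 64, or with quantile normalization, among others. Leaving out 1 array gave changes of 0.52 to 1.33.

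AT2G20560, for a DNAJ protein, a partner of HSP70, had 1010.2 and 431 in the double mutant, 666 and 276 in sicy-192, and 144 and 82.7 in the wild type. It was called higher in sicy-192 than in the wild type (1.83 ± 0.46, limma adjusted p = 0.0196), a call lost without the filter, without sicy-192 replicate 1 and without wild-type replicate 2 (adjusted p up to 0.0979). The double mutant and sicy-192 overlapped. HSA32, a protein needed to keep acquired heat tolerance, had 539 and 263 in the double mutant, 180.5 and 186 in sicy-192, and 156 and 105 in the wild type. Both double mutant arrays lay above the other 4. The log2 change of 0.98 ± 0.31 against sicy-192 was not called (adjusted p = 0.051), and without double mutant replicate 1 it was 0.49 (adjusted p = 0.307). It passed with quantile normalization, with arrays centred on their medians and without double mutant replicate 2, among others, and did not without the filter. The change of 1.45 ± 0.31 against the wild type was called (adjusted p = 0.00818, and 0.0523 without double mutant replicate 1).

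**Figure D3:**
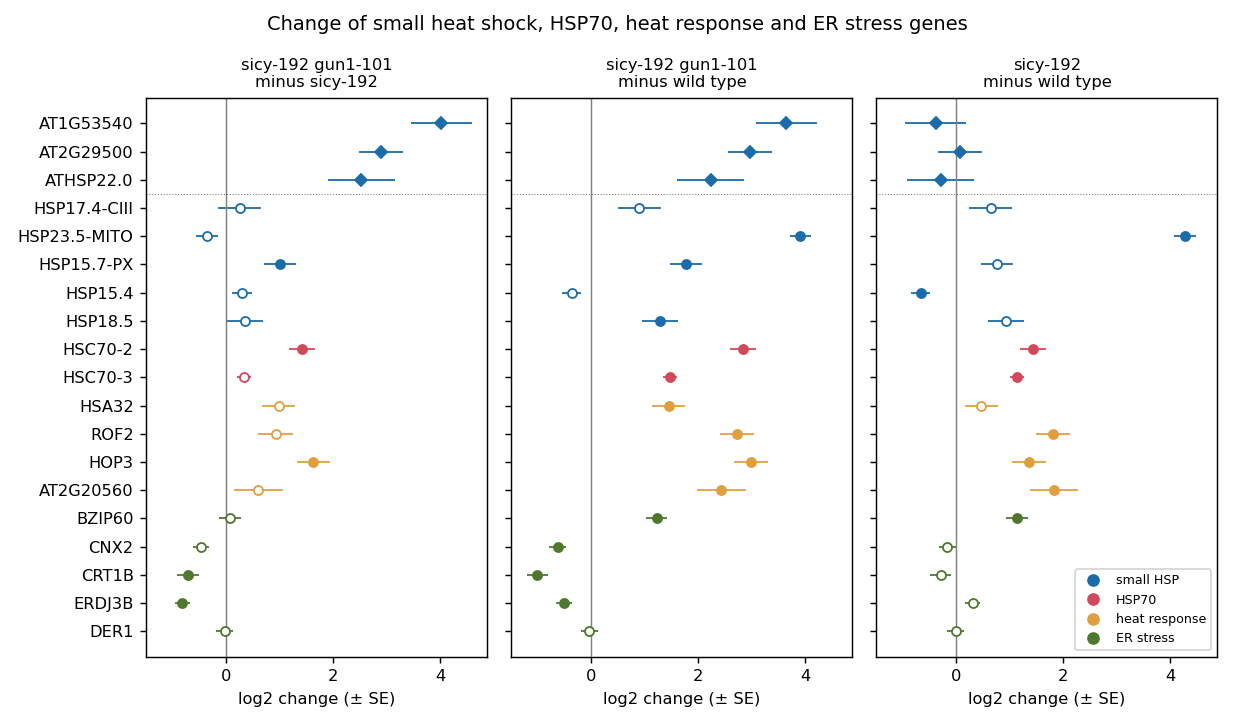
Log2 change (horizontal axes, bars ± SE of the fit) of AT1G53540, AT2G29500 and ATHSP22.0 (diamonds, above the dotted line) and of the 16 other tested genes of the heat shock and ER stress lists (circles, filled where the limma adjusted p was under 0.05) in the 3 comparisons. In the right panel the 3 diamonds lie near 0 while HSP23.5-MITO is at 4.27 and ROF2 at 1.80, and in the left panel the diamonds lie between 2.53 and 4.02 and ERDJ3B at -0.82.

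Since ATHSP22.0 belongs to the ER, genes of the ER stress response were set beside it. Of 18 listed, 5 have a probe set of their own and all 5 were tested. In the double mutant against sicy-192, 0 were called higher by limma (0 at an unadjusted p under 0.05) and 2 lower, where 9.54% of all probe sets were called higher and 11.2% lower, with a median log2 change of -0.46 against -0.05 for all tested. Against the wild type, 1 was called higher in the double mutant and 3 lower (17.3% and 12.8% of all), with a median of -0.51 against 0.07. Calreticulin CRT1B, a chaperone of glycoproteins, had 1490.3 and 1176 in the double mutant, 2656 and 1792 in sicy-192, and 2683 and 2653 in the wild type, a log2 change of -0.71 ± 0.20 for the double mutant against sicy-192 (limma adjusted p = 0.0319, up to 0.204 without sicy-192 replicate 1 and lost under 4 more of the alternatives). ERDJ3B, a J-domain partner of the ER chaperone BiP, had 779 and 812 in the double mutant, 1472 and 1355 in sicy-192, and 1049.9 and 1227 in the wild type, a change of -0.82 ± 0.14 (adjusted p = 0.00433). Against the wild type ERDJ3B was called lower in the double mutant (-0.51 ± 0.14, limma adjusted p = 0.0268). That call was lost without the variance trend (limma adjusted p = 0.0502), and leaving out 1 array gave changes of -0.62 to -0.39. Both double mutant arrays lay above all others for ATHSP22.0 and below all others for CRT1B and ERDJ3B. Within the double mutant, replicate 1 was the higher array for ATHSP22.0 and CRT1B and the lower for ERDJ3B.

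BZIP60, a transcription factor of the unfolded protein response, had 1054 and 1429.8 in the double mutant, 1007 and 1339.7 in sicy-192, and 463 and 577 in the wild type. It was called higher in sicy-192 than in the wild type (1.14 ± 0.20, limma adjusted p = 0.00405) and in the double mutant than in the wild type (1.22, adjusted p = 0.00271), while the mutants overlapped. The calnexin CNX2 had 439.7 and 464 in the double mutant, 597 and 662 in sicy-192, and 652 and 763 in the wild type, and was called lower in the double mutant than in the wild type (-0.63, adjusted p = 0.0147, lost without either double mutant array or wild-type replicate 2). DER1, of the pathway that removes misfolded ER proteins, stayed between 412 and 505 in all arrays and was called in no comparison.

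Genes with the profile most like that of the 3 small heat shock genes were ranked by Pearson's r, over the 6 arrays, with the mean of their centred log2 profiles, among 1321 named genes whose genotype means spanned at least 1 on the log2 scale. The values of r rest on the contrast between 2 double mutant arrays and the other 4 and on the gaps between replicates. They describe likeness only. AT1G22890 came first (r = 0.983), with 168 and 91.3 in the double mutant, 38.4 and 19.9 in sicy-192, and 48.1 and 24.1 in the wild type. HIS1-3, a linker histone induced by drought, was next (r = 0.980), with 225 and 107 in the double mutant, 65.2 and 29.2 in sicy-192, and 70.1 and 43.4 in the wild type. AT1G13990 (r = 0.970) and COR15A (r = 0.959) followed. COR15A, which protects chloroplasts in the cold, had 2358 and 880.4 in the double mutant, 174 and 49.0 in sicy-192, and 324 and 203 in the wild type. Replicate 1 was higher than replicate 2 for these 4 genes in each genotype, as for 24.0% of all tested probe sets. The ranking used single arrays and so favoured genes with that gap, and nothing is read from it. Among the 10 genes most alike, AT1G69480 in the double mutant (132 and 139) and AT4G38540 in the wild type (62.3 and 71.3) went the other way.

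The other genes of the first 10 were AT1G76600, AT1G16260, AT3G10020, AT4G38540, AT1G14340 and AT1G69480, with r between 0.933 and 0.953. Their log2 changes for the double mutant against sicy-192 ran from 1.04 in AT1G16260 to 2.07 in AT1G76600, below the 2.53 to 4.02 of the small heat shock genes. AT1G22890, HIS1-3 and AT1G13990 were below that range too. COR15A was not, with a change of 3.71, larger than those of AT2G29500 and ATHSP22.0. For COR15A both sicy-192 arrays also lay below both wild-type arrays, whereas these genotypes overlapped for the small heat shock genes. Taken one by one, the small heat shock genes shared AT1G22890 among their 5 most alike genes. HIS1-3 had r = 0.997 with ATHSP22.0 and 0.963 with AT1G53540, and AT1G76600 led for AT2G29500 (r = 0.972). Called higher in the double mutant than in both other genotypes were 695 probe sets (4.70% of those tested), of which 525 were not called between sicy-192 and the wild type.

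**Figure D4:**
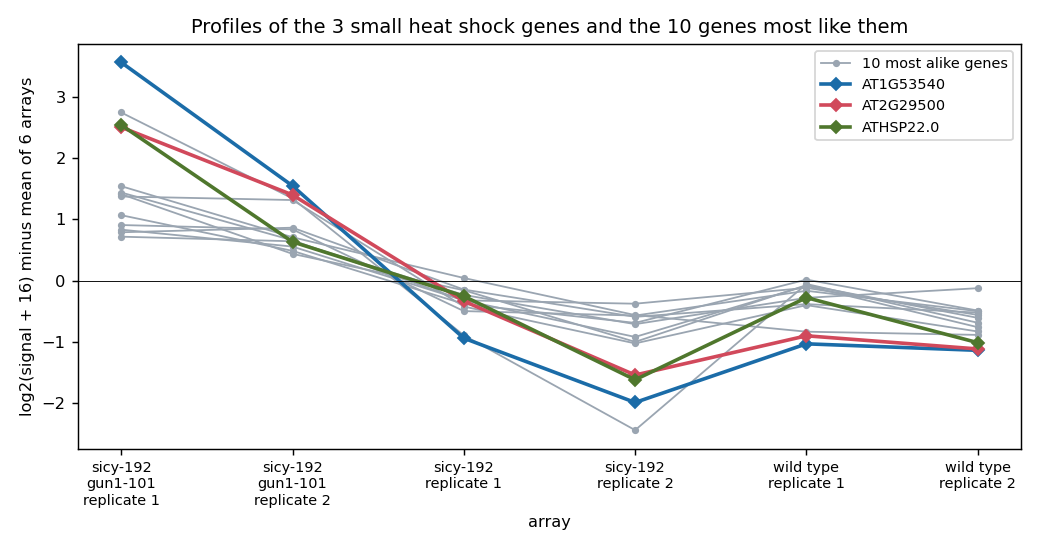
Profiles over the 6 arrays (horizontal axis) of AT1G53540, AT2G29500 and ATHSP22.0 (coloured) and of the 10 named genes most like their mean (grey), each as log2(signal + 16) minus its own mean over the arrays (vertical axis). All profiles are highest in the 2 double mutant arrays, and AT1G53540 spans the widest range, with its lowest value in sicy-192 replicate 2.

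Of the genes directly beside the 3 on the chromosome, 3 have a probe set of their own, and those tested were not called. On chromosome 1, AT1G53530, the protein-coding gene before AT1G53540, had 298 and 384 in the double mutant, 429 and 403 in sicy-192, and 407 and 403 in the wild type (log2 change -0.28 ± 0.17 for the double mutant against sicy-192, limma adjusted p = 0.273). On chromosome 2, AT2G29510, next after AT2G29500, lay between 362 and 463 in all arrays (-0.04 ± 0.16, adjusted p = 0.885). On chromosome 4, AT4G10260, next after ATHSP22.0, was below the filter, with 14.8 and 10.7 in the double mutant, 24.3 and 32.5 in sicy-192, and 5.89 and 2.26 in the wild type.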

How the data were processed

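The deposited table gives a linear intensity for each probe set of a 1-colour Affymetrix array. The submitters' processing notes name GCOS with no version, and the signal algorithm is not given in the sources used here. The authors had scaled each column to a 2% trimmed mean of 500, found from the values. Here each array was rescaled to 500, 16 was added and log2 taken. Control probe sets (64 of 22810 rows) were left out, and the 14785 probe sets with a mean log2 value above the 35th percentile were tested (limma 3.58.1, R 4.3.3, two-sided, variance trend, all 6 arrays in 1 fit, Benjamini-Hochberg adjustment). The fit was tested on simulated data with noise drawn independently for each array. That cannot show how it behaves where deviations are shared between arrays. The small number of arrays limits precision, and no detection calls were used. Of 22746 probe sets the gene table gives 13513 a single gene, 503 several and 8730 none, and 13436 matched a RefSeq locus (TAIR10.1 table, used for names and gene order). The brightest probe set stands for a gene. Class I genes are alike in sequence, and cross-hybridisation was not tested.

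The genes and lists were chosen with earlier results of these data known. The rule for named genes covers the 3 genes, every list gene with a probe set of its own, the 10 named genes most alike by Pearson's r and the 5 most alike for each gene. Neighbouring genes were added after values had been seen. The alternatives tried were a threshold of 0.10, a replicate block, offsets of 1 and 64, a filter at the 50th percentile or none, quantile normalization, unscaled deposited values, centring on array medians, no variance trend, only the 4 arrays compared, the mean of a gene's probe sets, and leaving out each array.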

Additional observations from a re-analysis of the deposited data

Results flagged for a closer look

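A probe set outside the comparisons above carried a signal well over its wild-type level. The gene table gives it 2 genes, both on the heat shock or ER stress lists, so it was not used for any single gene. Its signal was 872 and 709 in the double mutant, 407 and 274 in sicy-192, and 107 and 53.0 in the wild type. The log2 change was 3.12 ± 0.29 for the double mutant against the wild type (limma adjusted p = 0.00016), 1.20 for the double mutant against sicy-192 (adjusted p = 0.0181) and 1.93 for sicy-192 against the wild type (adjusted p = 0.00158). It differs from AT1G53540, AT2G29500 and ATHSP22.0 in that sicy-192 and the wild type did not overlap, a difference that was not tested.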

How the results depend on the processing

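The added constant moved the log2 changes of AT1G53540 and ATHSP22.0 more than that of AT2G29500. For the double mutant against sicy-192 AT1G53540 changed by 4.72 with an offset of 1 and 3.01 with 64, ATHSP22.0 by 3.26 and 1.67, and AT2G29500 by 2.97 and 2.67. Leaving out arrays gave 3.01 to 5.03, 1.57 to 3.48 and 2.29 to 3.50 for these 3 genes in the same order.

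Of the 16 tested heat shock and ER stress genes, 5 were called between the double mutant and sicy-192, against 3 without the filter, 3 without the variance trend, 8 at a threshold of 0.10, and 3 to 7 without 1 array. For sicy-192 against the wild type 8 were called, and 5 to 9 without 1 array, and for the double mutant against the wild type 13, and 10 to 13.

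Over all probe sets 3060 were called between the double mutant and sicy-192 (1456 to 3256 without 1 array), 4450 between the double mutant and the wild type (2309 to 4331) and 3402 between sicy-192 and the wild type (2075 to 2966). The share of higher calls, 46.1%, 57.5% and 60.0% in these comparisons, was 59.8%, 45.1% and 31.4% with arrays centred on their medians and 48.0%, 49.0% and 48.1% with quantile normalization. Centring moved the median of all probe sets in sicy-192 against the wild type to -0.03, against 0.16.

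With the replicate number as a block the counts over all probe sets were 4917, 6362 and 5412 in the same order, and those over the 16 genes 10, 14 and 11. The block added calls between the double mutant and sicy-192 for ROF2 (adjusted p = 0.000248), HSA32, AT2G20560, CNX2 and HSC70-3 (up to 0.0367), between the double mutant and the wild type for HSP17.4-CIII (0.00389), and between sicy-192 and the wild type for HSP15.7-PX, HSP18.5 and HSP17.4-CIII (up to 0.0271). The labels do not say what the number marks. Replicate 1 deviations from the group means correlated across probe sets at 0.374 for the double mutant and sicy-192, 0.329 for the double mutant and the wild type, and 0.436 for sicy-192 and the wild type.

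Direction turned in genes that were not called. For the double mutant against sicy-192, changes without 1 array ran from -0.47 to 0.98 in HSP17.4-CIII, -0.014 to 0.71 in HSP18.5, -0.0098 to 1.21 in AT2G20560, -0.14 to 0.30 in BZIP60 (-0.12 without sicy-192 replicate 1) and -0.17 to 0.12 in DER1 (0.023 without sicy-192 replicate 2), where centring gave 0.077. DER1 ran from -0.18 to 0.11 for the double mutant against the wild type and from -0.058 to 0.038 for sicy-192 against the wild type (0.018 without wild-type replicate 1). The causes were not tested.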
